A study of Homo sapiens with 8 samples.

Results

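The SNORA and SCARNA genes encode small nuclear guide RNAs, and 77 of them were measured among 18417 genes on expression arrays of BT549 cells. They were chosen by name: every row of the value table with a single gene symbol starting with SNORA or SCARNA was kept. This gave 83 rows for 61 SNORA and 16 SCARNA genes, and a further 28 rows that name such a gene together with another symbol were left out. Membership rests on no signal, but the group was proposed with results of the suspended-to-attached comparison known. The differences of these genes are therefore a description with no test, and calls (a Benjamini-Hochberg adjusted p under 0.05 by limma over all genes tested) serve only to count them beside the whole array.

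BT549 is an established human breast cancer line of the triple-negative type. In 4 biological replicates it was grown attached to ordinary culture plastic, and in 4 it was kept from adhering by a poly-HEMA coating on the plate and so held in suspension. Both groups were kept in RPMI with 10% serum and insulin, and no genetic change or drug was applied to either. The suspended cultures lasted 24 h, whereas the labels give 24 h in one place and 48 h in another for the attached cultures, so culture time and attachment cannot be told apart if the longer time holds. All 8 samples come from a single line, and p-values measure the spread between these cultures only.

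H/ACA small nucleolar RNAs fold into hairpins followed by a box H and a terminal box ACA, and guide the conversion of uridine to pseudouridine in ribosomal RNA. Small Cajal body RNAs (scaRNAs, the SCARNA genes) guide modification of the spliceosomal RNAs in the Cajal body. Nearly all of them in humans lie in introns of host genes, many of which encode ribosomal proteins, translation factors or non-coding host transcripts, and they are trimmed out of the excised intron while 4 core proteins assemble on them. The SCARNA symbol is broader than box H/ACA. From textbook knowledge, SCARNA7, SCARNA9 and SCARNA17 are of the box C/D type, and SCARNA5, SCARNA6, SCARNA10 and SCARNA12 carry both kinds of box, so the 16 SCARNA genes fall into 8 of the H/ACA type, 4 mixed, 3 of the C/D type and SCARNA9L, a copy related to SCARNA9 that was in none of these lists. By RefSeq (GRCh38.p14) the SNORA genes are 123 to 236 bases long and the SCARNA genes 125 to 421 bases long, and all 77 lie within the bounds of at least 1 longer gene.

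The tables used here hold letters of the members only for the microRNAs hsa-miR-6516-5p and hsa-miR-6516-3p, both inside SCARNA16. The 3p stretch, printed here, shows the box that gives the family its name. The microRNA hsa-miR-6516-3p (chr17:77089469-77089490, plus strand) lies inside SCARNA16 and ends 3 bases before the end of that gene, with the terminal ACA in capitals.
hsa-miR-6516-3p: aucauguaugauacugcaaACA

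The host genes have sequence features of their own. The start of a gene for the translation machinery often carries a pyrimidine tract, known as the TOP tract in the transcript. Windows of 15 bases before and 15 bases after the RefSeq start are shown for 8 genes that hold a called member. They were picked after the letters were seen, to show windows with and without a tract. The longest tract (a C followed by at least 4 further C or T letters) is in capitals, wherever it lies in the window. The first 6 have such a tract and the last 2 have none. Its position relative to the start was not required, so a marked tract is not by itself a TOP tract.
SNHG8 (chr4:118278747-118278776, plus strand, holds SNORA24): aaggcctcggCCTTTCacattcgggaagcg
SNHG17 (chr20:38435314-38435343, minus strand, holds SNORA71A, SNORA71C and SNORA71D): ttgtcgtgtggcctcagtCCTTCgccgtcc
SNHG4 (chr5:139274086-139274115, plus strand, holds SNORA74A): ctcggctcccggctgCCCTTTCCCCTCCgg
RPL27A (chr11:8682777-8682806, plus strand, holds SNORA3A and SNORA3B): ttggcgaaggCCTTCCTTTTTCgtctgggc
RPL21 (chr13:27251543-27251572, plus strand, holds SNORA27): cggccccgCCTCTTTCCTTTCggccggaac
IPO7 (chr11:9384637-9384666, plus strand, holds SNORA23): ttggcgCTTCTCTTTCCTTTCgcgccggtt
TBRG4 (chr7:45111683-45111712, minus strand, holds SNORA5A, SNORA5B and SNORA5C): cgcgccgcgcacctcatggttccggggaca
KHDC4 (chr1:155934399-155934428, minus strand, holds SCARNA4 and SNORA80E): gtgacgagaggtggtagtcggatagttggc

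Of 86 RefSeq starts of genes that hold a member, 43 (50%) carried a tract as defined above, anywhere in the window, on the gene's own strand. On the other strand 29 (33.7%) did. Over all 35116 starts the shares were 39.0% and 36.9%. A tract of at least 10 letters, a length chosen after the sequences were seen, stood at 12 of the 86 starts (13.95%) and at 1759 (5.01%) of all starts. A gene can have several starts, and the pair SNHG4 and MATR3 share one, so these starts are not independent. The shares describe letters only and say nothing of translation.

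Box H/ACA and scaRNA signals were on balance slightly lower in suspended cells. Of the 77 genes, 17 were called lower in suspension and 1 was called higher. Over the whole array 10.2% of genes were called lower and 10.4% higher. The 4 suspended values lay below all 4 attached values for 19 members, and above them for 0. Over all genes these shares were 12.2% and 12.7%. The median log2 difference, suspended minus attached, was -0.09 over the 77 members and 0.02 over all 18417 genes, and 60 members had a negative difference. Single members ranged from -0.74 to 0.24, with standard errors (SE, the moderated error of limma) of 0.042 to 0.153. In these bulk samples fewer cells with an RNA and less of it per cell cannot be told apart.

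**Figure D1:**
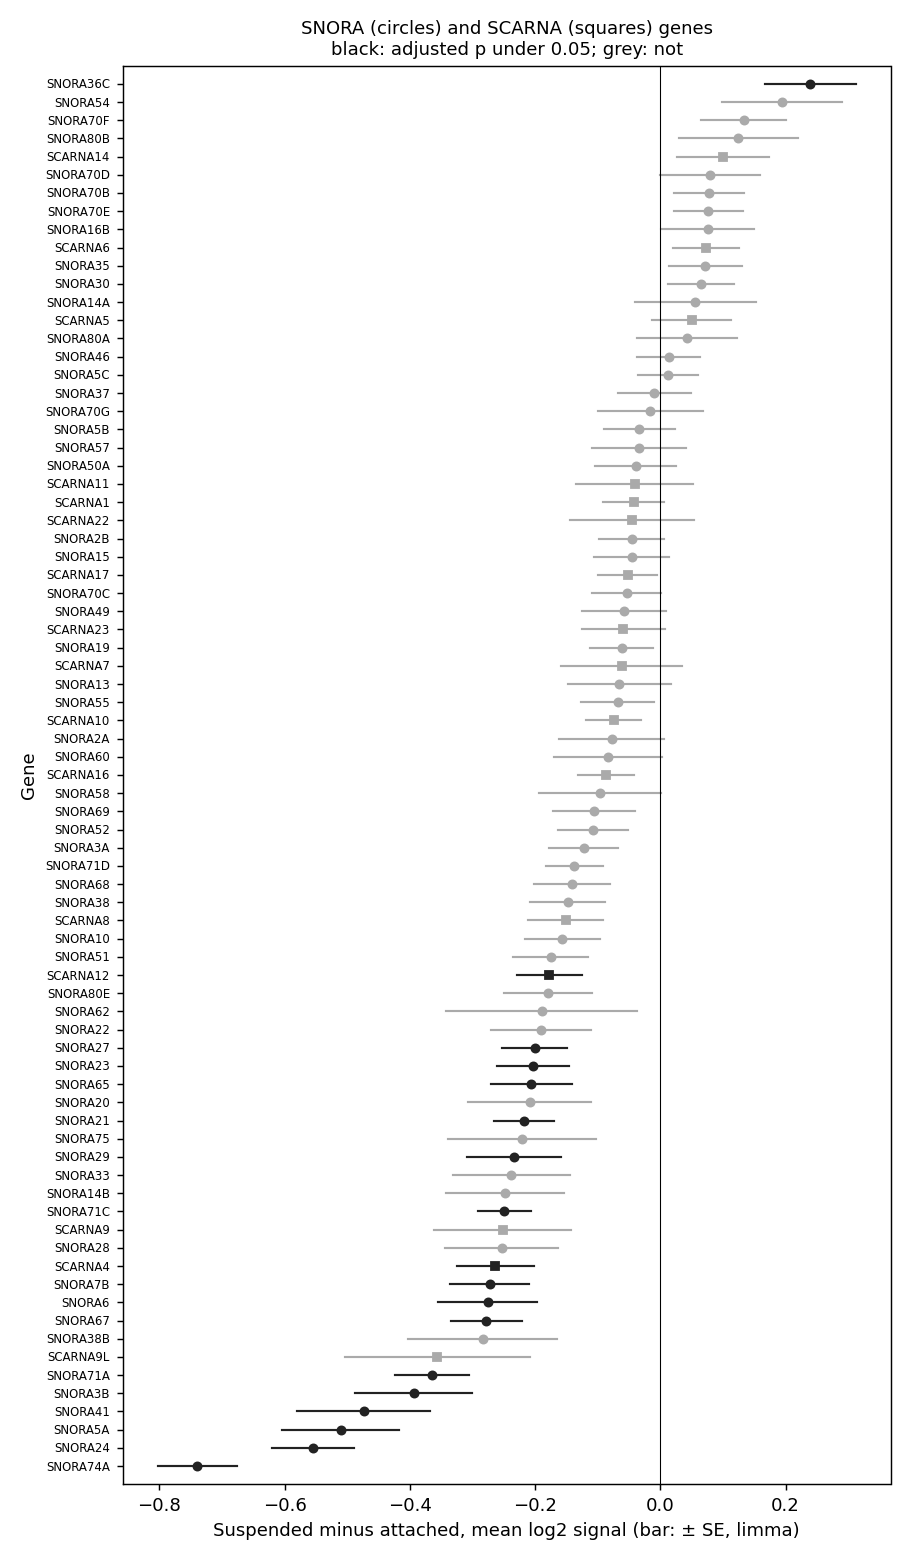
Difference in mean log2 signal, suspended minus attached, for each of the 77 genes (circles, SNORA; squares, SCARNA), with bars of 1 SE from limma on either side and black for genes at an adjusted p under 0.05. SNORA74A lies farthest to the left at -0.74, and 60 of the 77 genes lie left of 0.

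The same displacement was present on every array. For each gene the deviation of an array from the gene's mean over 8 arrays was taken, and the median over the 77 members was then 0.04 to 0.06 on the attached arrays and -0.08 to -0.03 on the suspended arrays. Over all genes tested the corresponding medians were -0.02 to 0.00 attached and -0.01 to 0.02 suspended. No suspended array reached an attached one for the members.

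The calls for members depended on how arrays were scaled. With each array centred on its median over all genes, 22 members were called lower and 0 higher, and 2472 genes of the whole array lower and 1340 higher, against 1877 and 1910 as deposited. With quantile normalization the members' counts were 17 and 1, beside 10.7% of all genes called lower and 9.58% higher.

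SNORA74A, a long H/ACA RNA also known as U19, had the largest difference. Its log2 signal (probe set 8108420) was 7.29, 7.34, 7.37 and 7.19 on the attached arrays and 6.58, 6.67, 6.57 and 6.41 on the suspended arrays. All suspended values were below all attached ones, by a mean log2 difference of -0.74 (SE 0.063, n = 4 per group), a signal 1.67-fold lower. Signals of this array are not RNA amounts, since no background measure was used, and the ratio is one of signals.

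SNORA24, an H/ACA RNA carried by the non-coding host SNHG8, was next. Its signal (probe set 8097056) was 9.002, 8.89, 8.93 and 8.93 attached and 8.35, 8.53, 8.44 and 8.22 suspended. The groups were clearly apart, and the attached arrays were close together (SD 0.05) while the suspended ones spread more widely (SD 0.13). The difference was -0.55 (SE 0.065), or 1.47-fold lower.

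SNORA5A had a signal (probe set 8139482) of 6.15, 6.20, 6.56 and 6.30 attached and 5.64, 5.97, 5.81 and 5.75 suspended. Attached replicate 3 was the highest, and no suspended value reached the lowest attached one. The difference was -0.51 (SE 0.093), or 1.42-fold lower.

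SNORA41, which lies in the gene for a translation elongation factor subunit, EEF1B2, had a low signal (probe set 8047780). The values were 4.94, 5.31, 5.29 and 5.09 attached and 4.55, 4.94, 4.75 and 4.49 suspended. The highest suspended value equalled the lowest attached one, and the difference was -0.47 (SE 0.107). The mean over 8 arrays, 4.92, was under 5.28, a reference for low signal taken here as the 25th percentile of the mean signals of all genes.

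The other members called lower differed by -0.39 to -0.18. They were SNORA3B (-0.39), SNORA71A (-0.36), SNORA67 (-0.28), SNORA6 (-0.28), SNORA7B (-0.27), SCARNA4 (-0.26), SNORA71C (-0.25), SNORA29 (-0.23), SNORA21 (-0.22), SNORA65 (-0.21), SNORA23 (-0.20), SNORA27 (-0.20) and SCARNA12 (-0.18). In 15 of the 17 members called lower the groups did not overlap, the exceptions being SNORA41 and SNORA6, whose signal was 6.87 to 7.15 attached and 6.63 to 6.93 suspended. SNORA71C was the most even of them, at 10.85, 10.90, 10.87 and 10.87 attached and 10.63, 10.65, 10.59 and 10.63 suspended.

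**Figure D2:**
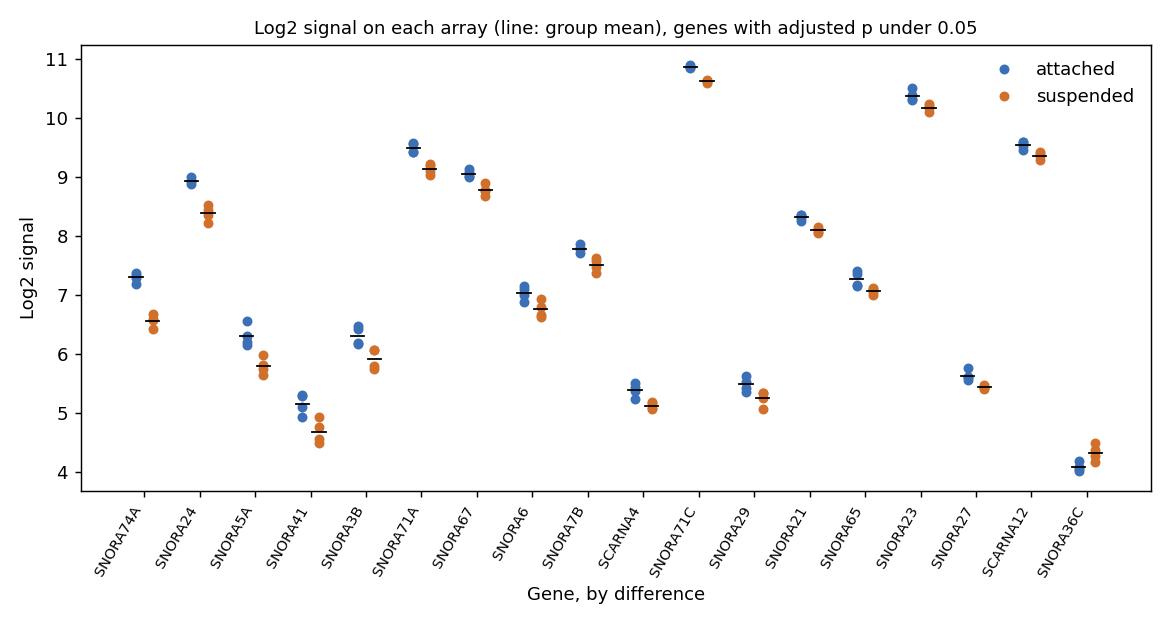
Log2 signal of the 18 genes with an adjusted p under 0.05, each array a point (blue, attached; orange, suspended; 4 each) and each group mean a line. In SNORA74A the attached points lie between 7.19 and 7.37 and the suspended points between 6.41 and 6.67, and SNORA36C, at the right, is the gene with a higher mean in suspension.

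SNORA36C was the member called higher. Its signal (probe set 8052826) was 4.01, 4.05, 4.08 and 4.18 attached and 4.26, 4.16, 4.49 and 4.38 suspended. The groups overlapped, since suspended replicate 2 lay below attached replicate 4, and the difference was 0.24 (SE 0.072). Its mean signal, 4.20, was below the 25th percentile. Dropping attached array 1, 2 or 3, or suspended array 3 or 4, removed the call (difference 0.18 to 0.29 in the 8 refits). Median centring and a fit of all 33297 rows removed it too.

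With 1 array left out in turn, 12 of the 18 called members kept their call in all 8 refits, and the same 12 kept it in each other setting that tested them: SNORA74A, SNORA24, SNORA5A, SNORA41, SNORA3B, SNORA71A, SNORA67, SNORA7B, SCARNA4, SNORA71C, SNORA21 and SNORA27. SNORA6 was not called in 5 of the refits, those that dropped attached array 2, 3 or 4 or suspended array 1 or 4 (-0.33 to -0.23). SNORA29 stayed called in the refits that dropped array 4 of either group and in no other (-0.28 to -0.17), and SNORA65 in those that dropped attached array 1 or 4 (-0.25 to -0.16). For SNORA23 the refits without a call dropped attached array 1 or 2 or suspended array 3 or 4 (-0.23 to -0.16). SCARNA12 stayed called when array 1 of either group was dropped and in no other refit (-0.21 to -0.15), and it was not called after quantile normalization. With all 33297 rows in the fit, SNORA6, SNORA23, SNORA29, SNORA65 and SCARNA12 were not called. A replicate block removed the calls of SNORA29, SNORA65 and SCARNA12, and a variance trend that of SNORA29. Without attached replicate 2 the count of members called lower was 12, and it was 12 to 18 over the 8 refits. Over all genes 7.91% to 9.67% were called lower in these refits.

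In 4 members the groups did not overlap although the fit to the deposited values did not call them: SNORA33 (-0.24), SNORA51 (-0.18), SCARNA8 (-0.15) and SNORA71D (-0.14). Other settings called some of them. SNORA51 was called with median centring, quantile normalization, array weights or a low-signal filter. SNORA71D was called with median centring, a variance trend or the low-signal filter, and SCARNA8 with median centring. SCARNA8 read between 7.01 and 7.02 on all suspended arrays, against 7.07 to 7.34 on the attached ones. The largest differences not called belonged to SCARNA9L (-0.36, SE 0.148), SNORA38B (-0.28, SE 0.119), SNORA28 (-0.25, SE 0.090), SCARNA9 (-0.25, SE 0.109), SNORA14B (-0.25, SE 0.094) and SNORA33 (SE 0.093). Of these, SNORA38B was called with a replicate block and SCARNA9 when suspended array 2 was dropped. SNORA28 was called with median centring or a replicate block, and when attached array 4 or suspended array 2 was dropped. In SNORA38B, for example, the attached arrays read 8.11, 7.57, 7.53 and 7.96 and the suspended ones 7.57, 7.41, 7.43 and 7.63, so the attached group itself spread over most of the range.

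Among the 16 scaRNA genes, 2 were called lower (12.5%) and 0 higher, a share of lower calls near the 10.2% over all genes. SCARNA4, an H/ACA scaRNA, read 5.43, 5.23, 5.37 and 5.50 attached and 5.08, 5.17, 5.16 and 5.06 suspended, with no overlap, though its mean (5.25) is below the 25th percentile. SCARNA12, of the mixed type, read 9.45, 9.52, 9.59 and 9.60 attached and 9.43, 9.38, 9.36 and 9.28 suspended, with the groups just apart. Not called were, beside SCARNA9L, SCARNA9 and SCARNA8, SCARNA16 (-0.09), SCARNA10 (-0.07), SCARNA7 (-0.06), SCARNA23 (-0.06), SCARNA17 (-0.05), SCARNA22 (-0.05), SCARNA1 (-0.04), SCARNA11 (-0.04), SCARNA5 (0.05), SCARNA6 (0.07) and SCARNA14 (0.10). The median difference was -0.05 in the 8 of the H/ACA type, -0.01 in the 4 mixed ones, -0.06 in the 3 of the C/D type and -0.11 over the 61 SNORA genes.

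TERC, the telomerase RNA, ends in an H/ACA domain and is bound by the same core proteins. Its signal was 6.25 ± 0.18 attached and 6.20 ± 0.07 suspended (mean log2 ± SD, n = 4 each), a difference of -0.05 (SE 0.080, limma adjusted p = 0.734).

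Members differed in how bright they were. Of the 41 with a mean signal of at least 6, 13 were called lower (31.7%), and of the 21 below the 25th percentile 2 were (9.52%), beside 16.1% and 1.11% of all genes at those levels. The highest mean signals were those of SNORA71D (11.87), SNORA3A (11.05) and SNORA71C (10.75), and the lowest those of SNORA19 (3.62), SNORA16B (3.67) and SCARNA23 (3.78). Signals of different probe sets do not rank the RNAs by amount. No filter on low values was applied, so all 77 entered the fit; 21 had a mean below the 25th percentile, and 3 of these were called (SNORA41 and SCARNA4 lower, SNORA36C higher). SNORA71D and SNORA3A, the brightest, differed by -0.14 and -0.12 and were not called.

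**Figure D3:**
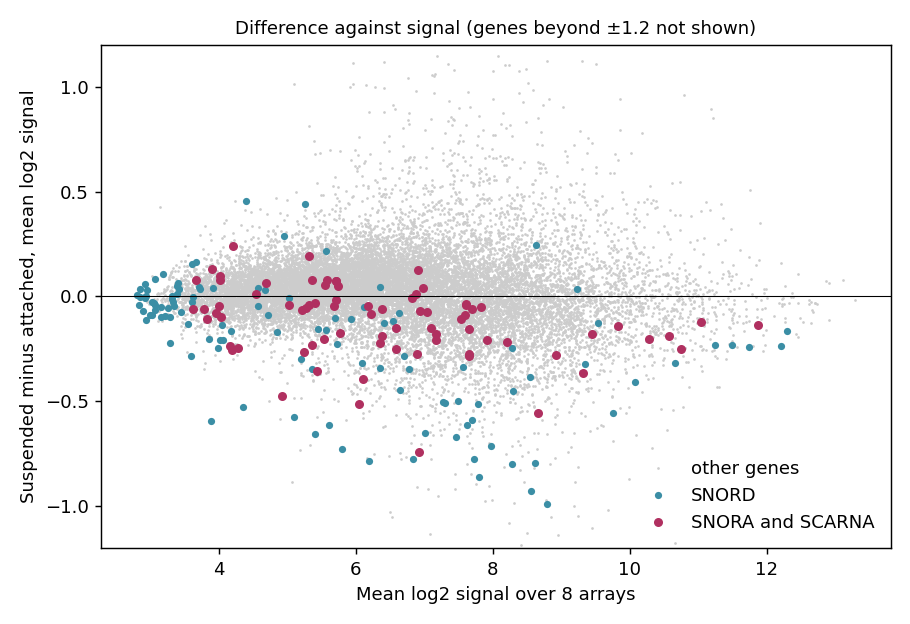
Difference in mean log2 signal, suspended minus attached, against mean log2 signal over 8 arrays for the SNORA and SCARNA genes (red), SNORD genes (blue) and all other genes (grey), 1 point per gene, with genes beyond 1.2 in either direction not shown. The red points run from a mean signal of 3.62 to 11.87, and 38 of the 41 at a mean signal of at least 6 lie below 0.

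Of 41 members with a mean signal of at least 6, a level chosen after the data were seen, 38 had a negative difference, and their median was -0.16. Of 10912 genes at that level 5103 had a negative difference. The other guide class, the box C/D RNAs (SNORD genes, which direct ribose methylation), was also lower on balance. Of 115 SNORD genes 42 were called lower (36.5%) and 2 higher (1.74%), with a median difference of -0.13, beside 10.2% and 10.4% over all genes. Whether the H/ACA and C/D classes differ from each other was not tested.

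Copies within families need care, because near-identical sequences can share probes and the table does not show which probes are unique. The 3 measured SNORA71 genes, all in SNHG17, were each lower without overlap: SNORA71A (9.56, 9.43, 9.58 and 9.43 attached, 9.10, 9.22, 9.18 and 9.03 suspended), SNORA71C and SNORA71D (11.95, 11.99, 11.90 and 11.90 attached, 11.81, 11.83, 11.81 and 11.74 suspended). The difference was smaller in the brighter copies. The 6 SNORA70 genes, which lie in 6 different hosts, differed by -0.05 (SNORA70C) to 0.13 (SNORA70F), and 0 of them were called. The remainder were SNORA70G (-0.02), SNORA70E, SNORA70B and SNORA70D (each 0.08). SNORA75, in the nucleolin gene NCL, differed by -0.22 (SE 0.118) and was not called in the main fit, but was with a replicate block.

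5 members had more than 1 row. The 2 rows of SNORA10 held identical values (-0.16), as did 2 of the 3 rows of SNORA15 (-0.10, against -0.05 in the third), so these are not independent readings. For SCARNA17 both rows were near 0 (-0.05 and -0.04). For SCARNA9 the brighter row differed by -0.25 and the other by -0.03, and for SCARNA9L by -0.36 and -0.08. The size of the SCARNA9 and SCARNA9L differences therefore rests on the row used.

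Host genes were compared next, since an intronic small RNA and its host messenger come from the same primary transcript. Of the 77 members 64 lay inside a gene with a value of its own in the fit, 54 such hosts in all, and the other 13 lay in genes such as RPSA, NOP56 and SNHG8 that were not tested here as genes of a single symbol. The RefSeq table used here gives no strand, so a host is the shortest measured gene that contains the member, on either strand. The 54 hosts had 67 rows, and a host's value is that of the brightest row with its symbol. Whether that row lies at the host's own locus was not checked. The probe sets of RPL23 (8014749) and its guest SNORA21 (8014755) have close numbers. Those of RPL12 (8063473) and SNORA65 (8164215) do not, nor do those of RPL27A (8180404) and SNORA3A (7938291). Some members also lie in a shorter gene that had no value here. Examples are SNORA74A (SNHG4, host taken as MATR3), SCARNA16 (SNHG20, host taken as SEC14L1) and SNORA22 (CCT6P1, host taken as LINC03006). Of the 54 hosts 18 were called lower (33.3%) and 0 higher, with a median difference of -0.11. Over all genes 10.2% were called lower, and 16.1% of genes with a mean signal of at least 6. Of the 17 members called lower, 13 had a measured host: 5 of these lay in a host that was itself called lower and 8 in one that was not called. Of the 50 measured-host members that were not called, 19 lay in a host called lower.

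The 8 hosts that hold more than 1 member cover 18 members. SNHG17, a non-coding host transcript that holds SNORA71A and SNORA71C (both called lower) and SNORA71D (not called), fell: it read 9.19, 9.34, 9.35 and 9.22 attached and 8.92, 9.03, 9.05 and 8.9997 suspended (-0.28, SE 0.054, limma adjusted p = 0.00367). SNHG17 had more than 1 row, and the mean of its rows differed by -0.36. TBRG4, which encodes a protein of mitochondrial RNA metabolism, read 8.34, 8.35, 8.51 and 8.49 attached and 8.21, 8.22, 8.14 and 8.24 suspended (-0.22, SE 0.054, limma adjusted p = 0.0141). Its 3 guests did not follow one pattern: SNORA5A differed by -0.51, whereas SNORA5B differed by -0.03 (SE 0.057) and SNORA5C by 0.01 (SE 0.048), and whether they differ from each other was not tested.

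KHDC4, a KH-domain RNA-binding protein gene, fell (-0.18, SE 0.050, limma adjusted p = 0.0223), although dropping attached array 1, 2 or 3 removed the call (-0.22 to -0.15 in the 8 refits). Its guests SCARNA4 and SNORA80E differed by -0.26 and -0.18. KANSL2 fell (-0.21, SE 0.052, limma adjusted p = 0.0120) while its guests SNORA2A (-0.08) and SNORA2B (-0.05) were not called. RPL27A, a ribosomal protein gene, was not called (-0.12, limma adjusted p = 0.241), with SNORA3B at -0.39 and SNORA3A at -0.12. TCP1, a chaperonin subunit gene, was not called either (-0.06, limma adjusted p = 0.429), with SNORA29 at -0.23 and SNORA20 at -0.21. The last pair of hosts, ATG16L1 (0.12) and CNOT1 (-0.06), and their guests SCARNA5, SCARNA6, SNORA50A (-0.04) and SNORA46 (0.01) were not called.

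**Figure D4:**
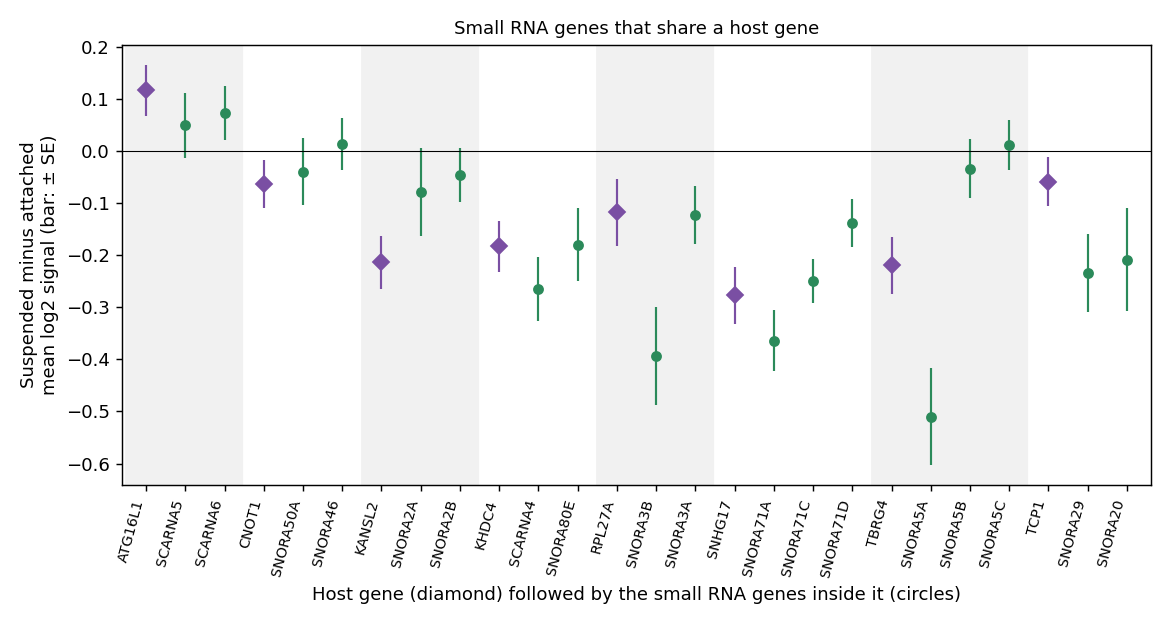
Difference in mean log2 signal, suspended minus attached, with bars of 1 SE on either side, for the 8 hosts with more than 1 measured small RNA gene (diamonds) and the 18 genes inside them (circles), each host in its own band. In SNHG17 the host (-0.28) and all 3 circles lie below 0, and in TBRG4 the host (-0.22) and SNORA5A (-0.51) lie below 0 by more than their bars while SNORA5B and SNORA5C lie near 0.

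Hosts with a single member gave further pairs. MATR3, a nuclear RNA-binding protein gene that shares its first start with SNHG4, read 9.20, 9.11, 9.11 and 9.04 attached and 8.87, 9.06, 8.998 and 8.83 suspended. Its difference of -0.18 (SE 0.061, limma adjusted p = 0.0667) was not called with all arrays, whereas SNORA74A inside it differed by -0.74. MATR3 was called once suspended array 2 was dropped (-0.22 to -0.14 in the 8 refits). SNORA74A also lies in SNHG4, a shorter gene without a value here, so its comparison with SNHG4 could not be made. RPL23 fell (-0.23, limma adjusted p = 0.0234) beside SNORA21, although dropping attached array 3 or 4, or suspended array 1 or 4, removed the call (-0.28 to -0.19). The hosts of the other called members were not called with all arrays: EEF1B2 (-0.002), RPL12 (0.01), IPO7 (-0.07), PHB2 (-0.17), RPL32P3 (-0.11) and AAK1 (0.04). Whether the row taken for RPL12 lies at the locus of SNORA65 was not checked. PHB2 (SE 0.086) and SCARNA12 had nearly the same difference, and EEF1B2 and SNORA41 (SE 0.107, with a low signal) did not. Whether a host and its guest differ from each other was not tested. PHB2 was called once attached array 1 was dropped (-0.25 to -0.11 in the 8 refits).

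Some hosts fell while the guest was not called. HAUS6, a spindle assembly gene, differed by -0.40 (limma adjusted p = 0.000397) and KPNA4, an importin gene, by -0.38 (limma adjusted p = 0.00853), beside -0.15 and -0.06 in SCARNA8 and SCARNA7. CCT6A, a chaperonin subunit gene, differed by -0.38, NOL11, a nucleolar protein gene, by -0.32, URB1, a ribosome biogenesis gene, by -0.28, TIPIN, a replication fork gene, by -0.27, CEP295 by -0.27, the condensin subunit gene NCAPD2 by -0.25, PABPC4 by -0.24, PHLPP2 by -0.23 and the translation initiation factor gene EIF5 by -0.22. MRPL3 (-0.19) was called in the refit that dropped suspended array 4 and in none of the other 7 (-0.24 to -0.15), and NCL (-0.17) was not called when attached array 4 was dropped (-0.20 to -0.16).

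Most listed genes for the H/ACA core proteins and for the assembly, localisation and RNA trimming of the particle were lower in suspension. Of 25 genes listed for the particle, its assembly, its localisation and the trimming of its RNA, 18 fell and 0 rose (limma, adjusted over all genes), and all 25 differences were negative, with a median of -0.24. The share that fell was 72%, beside 10.2% over all genes and 16.1% of genes with a mean signal of at least 6. The list was drawn up with earlier results of these data known. The 3 core protein genes that fell were DKC1, which encodes the pseudouridine synthase dyskerin, NHP2 and NOP10. DKC1 read 8.87, 8.79, 8.94 and 8.94 attached and 8.66, 8.59, 8.59 and 8.51 suspended (-0.30, SE 0.053, limma adjusted p = 0.00205), and NHP2 read 8.96, 8.82, 8.94 and 8.92 attached and 8.53, 8.68, 8.73 and 8.44 suspended (-0.32, SE 0.068, limma adjusted p = 0.00606). NHP2 had more than 1 row, and the mean of its rows differed by -0.34. NOP10 differed by -0.19 (limma adjusted p = 0.0213), although dropping attached array 3, or suspended array 1 or 3, removed the call (-0.21 to -0.16 in the 8 refits). The fourth core protein gene, GAR1, overlapped between the groups (-0.04, SE 0.059, limma adjusted p = 0.677).

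Of 12 genes listed for assembly 9 fell. NOLC1, which encodes the chaperone Nopp140 that binds these particles, had the largest difference, from 10.02, 9.92, 9.99 and 9.99 attached to 9.42, 9.56, 9.54 and 9.51 suspended (-0.47, SE 0.049, limma adjusted p = 4.13e-05). NUFIP1 (-0.39), the ATPases RUVBL1 (-0.37) and RUVBL2 (-0.31), RPAP3 (-0.30), the chaperone HSP90AB1 (-0.29), NAF1 (-0.28), which holds the place of GAR1 in the immature particle, TTI1 (-0.24) and SHQ1 (-0.19), which keeps free dyskerin soluble, fell as well. HSP90AA1 (-0.12), TELO2 (-0.11) and PIH1D1 (-0.03) were not called. In HSP90AA1 the groups did not overlap, and a variance trend called it. WRAP53, which carries scaRNAs to the Cajal body, fell (-0.16, limma adjusted p = 0.0461), and COIL, the scaffold of that body, was not called (-0.01, limma adjusted p = 0.914). WRAP53 stayed called when attached array 1 or suspended array 4 was dropped and in no other refit (-0.18 to -0.13).

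Of 7 genes that trim or tail the 3' ends of these RNAs, 5 fell: the deadenylase TOE1 (-0.43, SE 0.045, limma adjusted p = 5.48e-05), ZCCHC8 (-0.32), the exosome subunits EXOSC3 (-0.28) and EXOSC10 (-0.14), and TENT4B (-0.17), a polymerase that adds short A tails. EXOSC10 was called in none of the 8 refits (-0.15 to -0.13), and TENT4B in the 2 that dropped suspended array 2 or 3 (-0.19 to -0.13). The deadenylase PARN (-0.003, SE 0.060) and the exosome nuclease DIS3 (-0.08) were not called. Among genes listed for debranching and splicing of the hosts, the debranching enzyme DBR1 (-0.13), AQR (-0.10) and XAB2 (0.01) were not called. In DBR1 and AQR all suspended values were below all attached ones, which held for 12.2% of all genes. Of the box C/D proteins NOP58 fell (-0.38, limma adjusted p = 0.00123) and the methyltransferase FBL was not called (-0.10, limma adjusted p = 0.124).

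**Figure D5:**
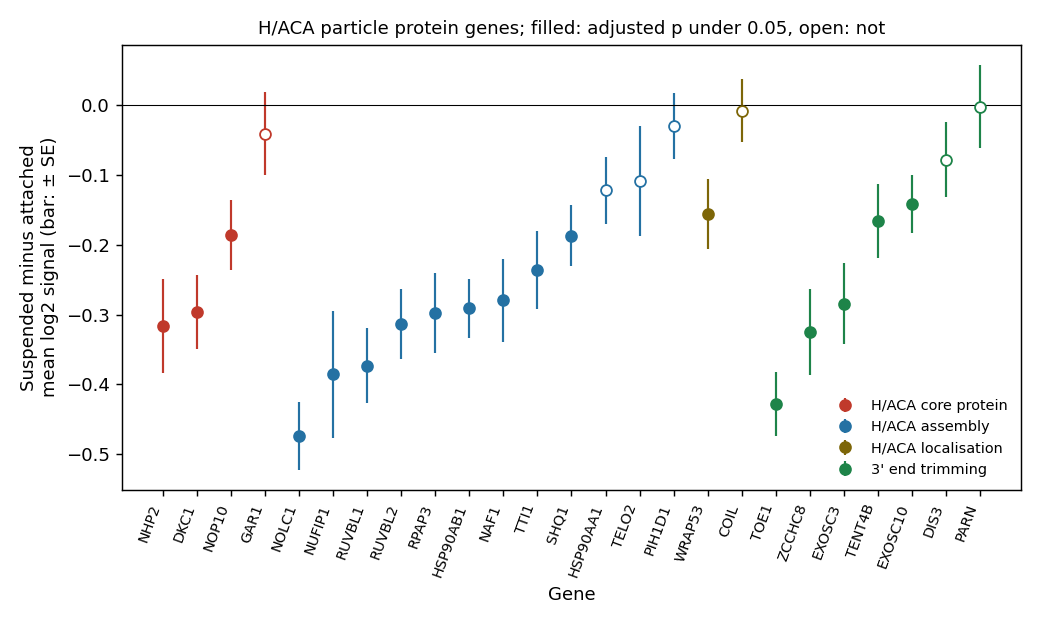
Difference in mean log2 signal, suspended minus attached, with bars of 1 SE on either side, for 25 protein genes, coloured by list (filled, adjusted p under 0.05, and open, not). The lists are 4 H/ACA core proteins, 12 assembly genes, 2 localisation genes and 7 genes of 3' end trimming. All 25 points lie below 0, from -0.47 in NOLC1 to -0.003 in PARN.

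Depth does not apply to arrays, and their number, 4 against 4, limits the precision. Array medians over the 33297 rows lay between 6.02 and 6.07, arrays correlated at r = 0.993 to 0.996 within groups and 0.987 to 0.994 between them, and none stood apart. The labelled cell type was checked by its markers. All 5 mesenchymal genes listed were far above the 25th percentile of gene means on every array. VIM read 11.73 attached and 11.66 suspended and was not called, CD44 (11.50 and 11.72) and ZEB1 (8.57 and 8.84) rose, and AXL (9.77 and 8.72) and CDH2 (8.94 and 8.56) fell (limma adjusted p = 0.00378, 0.00240, 8.46e-08 and 0.000104 in that order). The luminal genes ESR1 (5.04 and 5.11), PGR (4.19 and 4.31) and CDH1 (4.19 and 4.26) were below it, while EPCAM was near it and ERBB2 above it. Of 6 markers of leukocytes, endothelium and adipocytes, PTPRC, CD3E and PECAM1 lay below 5.28, CDH5, CD14 and ADIPOQ slightly above it, and CD14 rose (5.50 to 5.72, limma adjusted p = 0.0467), whose part in the results was not tested.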

How the data were processed

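Log2 signals in 1 table of 33297 rows and 8 arrays were deposited by the authors. Partek is the tool named, per the submitters' processing notes. Not given in the sources used here: its version, background correction and normalization. The log2 scale was inferred from the values. Per the labels, 1 µg of total RNA per sample was labelled with the FlashTag biotin kit. Such kits are made for small RNAs, whereas this table is at gene level, so how the RNA on these arrays was labelled is uncertain, and with it how small RNA and host signals relate. Rows were named from the platform annotation: 19460 had 1 symbol, 1754 several and 12083 none. For 769 genes with several rows the row with the highest mean stood for the gene, which left 18417 genes.

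Groups were compared across all genes with limma 3.58.1 in R 4.3.3 (lmFit, eBayes, two-sided, no covariate), with Benjamini-Hochberg adjustment and a threshold of 0.05. The pipeline was tested on simulated data. Hosts are the shortest measured RefSeq gene containing a member, and sequences are from RefSeq GRCh38.p14. The design called for hosts on the same strand, but the table used has no strand. All 77 members matched RefSeq by gene ID, 18 of 20 genes holding a called member had a start in the promoter table, and 0 members had a promoter entry.

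Members and lists were chosen with earlier results of these data known. Genes named are the called members, the 6 largest differences not called, the 3 brightest and 3 dimmest, every SCARNA, members with several rows, members of the SNORA36, SNORA70, SNORA71, SNORA73 (0 measured), SNORA74 and SNORA75 families, the listed protein genes, TERC, called hosts and hosts of named members. Named outside this rule, after values were seen, were SNORA51, the other guests of shared hosts, debranching, box C/D and marker genes and genes with an array set apart. Alternatives were median centring, quantile normalization, a replicate block, a variance trend, array weights, a low-signal filter, other uses of rows, robust variance and leaving out each array. Figures were drawn with Python 3.11.15 and matplotlib 3.10.9.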

Additional observations from a re-analysis of the deposited data

Results flagged for a closer look

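In 15 of 356 groups of 4 arrays 1 array stood far from the other 3, by a gap that passed Dixon's critical value for 4 samples, and 7 of these were among the 154 groups of the SNORA and SCARNA genes. Chance gives about 5% of groups. On attached arrays they were SNORA33 replicate 4 (log2 signal 4.49, nearest 4.23), SNORA2A replicate 3 (4.20, nearest 3.94), SNORA55 replicate 2 (7.13, nearest 6.94), SNORA37 replicate 4 (6.67, nearest 6.86) and SCARNA5 replicate 4 (5.56, nearest 5.75). On suspended arrays they were SCARNA17 replicate 4 (7.73, nearest 7.81) and SNORA70F replicate 1 (4.10, nearest 3.93). Of these 7 genes 0 were called.

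Among hosts and listed genes the arrays were suspended replicate 3 for AAK1 (8.62, nearest 8.68), suspended replicate 1 for IPO7 (9.59, nearest 9.71), TCP1 (11.32, nearest 11.45) and PGR (4.35, nearest 4.29), suspended replicate 4 for TELO2 (6.83, nearest 6.60), attached replicate 1 for CDH2 (8.89, nearest 8.95) and CD3E (4.69, nearest 4.63), and attached replicate 2 for CD14 (5.57, nearest 5.48).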

How the results depend on the processing

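The count of members called lower was 17 with all arrays as deposited and 12 to 22 over the other settings. No called gene changed direction under any of them. Over all genes the other settings called 6.01% to 14.6% lower and 5.03% to 14.7% higher. The count of members called higher, 1 as deposited, was 0 with median centring and 0 with all rows of the table. It was also 0 with the low-signal filter, which left SNORA36C out, and 0 to 1 with 1 array left out. The 25 listed protein genes of the particle, its assembly, its localisation and its RNA trimming gave 18 calls, and 14 to 16 with 1 array left out. The 54 hosts gave 18 calls, and 15 to 19 with 1 array left out. Median centring gave 25, a variance trend 24 and the low-signal filter 20 of the 53 hosts that it kept. Over all genes median centring called 13.4% lower and 7.28% higher, the variance trend 11.6% and 11.2%, and the filter 14.6% and 14.7%. With the replicate number as a block, 17 members were called lower, and 14 protein genes and 14 hosts were called. These 17 are not the same members as those of the main fit. The block lost SNORA29, SNORA65 and SCARNA12 and gained SNORA28, SNORA38B and SNORA75. Over all genes 8.24% were called lower and 8.17% higher with that block. Same-numbered arrays deviated from their group means with correlations of -0.20 to 0.04 over genes, and differently numbered ones with -0.20 to 0.26. Same-numbered arrays were thus no more alike, but whether the cultures were paired cannot be told from these values. The median member difference lay between -0.14 and -0.09 over all settings. Without a background measure, low signals carry no statement of presence.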
